A study of Mus musculus with 8 samples.

Results

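The genes described here are the origin licensing, origin firing, fork and polymerase genes of DNA replication, a list of 44 chosen by name and not by their values. Their transcripts were measured, with and without Cre, in mouse embryonic fibroblasts (MEFs) with floxed alleles of H3f3b, a gene for the replication-independent histone H3.3. A total of 40 of the 44 had a probe on the array, and 32 had a probe detected (detection p under 0.05 against negative control beads) on at least 3 of 8 arrays. Those 32 stood among 8486 genes tested. Of the other 12, Gins1, Gins2, Rfc3 and Rnaseh2a had no matched probe and were not analysed here, Gmnn, Orc1, Pola1, Prim1, Pole2, Dscc1 and Slbp were detected on 0 arrays, and Pcna, the sliding clamp of the fork, was detected on 1 array.

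All cells were H3f3b Fl/Fl MEFs of strain C57BL6J taken at E12.5, and all kept H3f3a, the other H3.3 gene. The Cre arm received a retrovirus with CRE-IRES-GFP and the GFP arm the IRES-GFP vector, each made in Plat-E packaging cells. The 4 Cre and 4 GFP arrays came from 3 lines, cKO1, pcKO1 and cKO2, of which cKO2 was hybridized in duplicate in each arm, called here duplicates a and b. The methods call the conditional samples analytical duplicates, and nothing says that the lines came from separate embryos, so spreads may be partly technical. In the table of scanner signals a single cell name covers 2 of the 4 pairs, marked in one of them as pooled, and which lines these are is not stated, so a culture may be a pool and the 3 lines may not be independent. The methods state no sort of transduced cells before harvest, but report that flow cytometry of a portion found GFP in nearly all cells of every sample.

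Before a cell copies its genome, the origin recognition complex, Cdc6 and Cdt1 load the MCM helicase onto origins in G1 phase. The kinases Cdc7-Dbf4 and cyclin-dependent kinases then recruit Cdc45 and the GINS complex, the helicase opens the DNA, and primase and the replicative polymerases copy it with the clamp, its loader RFC and the single-strand binder RPA. Many of these genes are transcribed at the G1-S boundary under E2F factors, so their transcripts are known as markers of proliferating cultures. Array signal comes from bulk RNA, in which fewer cells in cycle and less transcript per cell cannot be told apart.

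Levels are given as log2 intensity after background correction and quantile normalization, and a change is the Cre level minus the GFP level of the same line on that scale. On the GFP arrays H3f3b stood at 12.05 (cKO1), 12.42 and 12.62 (cKO2) and 11.94 (pcKO1), and on the Cre arrays at 6.73, 7.40 and 7.43, and 9.77. H3f3b was thus lower on every Cre array (-4.20 ± 0.51, SE, n = 3 lines, limma adjusted p = 0.185), with a smaller change of -2.17 in pcKO1 than of -5.32 in cKO1 and -5.11 in cKO2. H3f3a changed by -0.31 (cKO1), -0.09 (cKO2) and 0.16 (pcKO1). Array means of the scanner signal lay between 435.4 and 622.5 for GFP and between 340.6 and 626.5 for Cre. Each line stood apart in some marker genes, in different ways. Fibroblast markers were detected for 13 of 14 on the array, with summed signals of 36480 to 49230 on the GFP and 30410 to 53290 on the Cre arrays. In cKO1 the matrix genes Dcn (6.16 GFP, 5.95 Cre) and Col1a2 (8.66 and 7.51) were lower than on the other 6 arrays, where they stood at 9.67 to 11.17 and 9.68 to 11.09. Other fibroblast markers did not follow. Vim (14.35 on both) was higher in cKO1 than on the other 6 arrays, at 13.92 to 14.06. Prrx1 stood at 8.94 and 8.64 in cKO1, 8.45 and 8.32 in pcKO1 and 6.83 to 7.05 on the cKO2 arrays. S100a4 was likewise lowest in cKO2 (6.76 to 7.23), against 8.98 and 9.14 in cKO1 and 9.22 and 9.62 in pcKO1. After Cre 5 of the 13 were at least 1.5-fold lower in cKO1 (7.90% of all genes), among them Col1a1 (12.67 to 11.47). In that line 1, Thy1 (6.71 to 7.42), was at least 1.5-fold higher (5.51% of all genes). In pcKO1 3 of the 13 were at least 1.5-fold higher, as were 1.69% of all genes and 0 of the 32 replication genes. Thy1 stood at 13.31 (GFP) and 13.43 (Cre) in pcKO1 and at 6.71 to 8.86 on the other 6 arrays. Lum stood at 8.89 and 9.69 in pcKO1 and at 6.24 to 6.88 on the others. Median changes of the 13 markers were -0.22 (cKO1), -0.17 (cKO2) and 0.29 (pcKO1). Summed signal of the 15 macrophage markers on the array was 34530 and 29550 on the pcKO1 GFP and Cre arrays and 1240 to 1399 on the other 6, while Ptprc and Itgam, which macrophages also express, were detected on 0 arrays. Skeletal muscle markers summed to 3024 and 2471 in pcKO1, of which Acta1 alone gave 2154 and 1648, and to 801.8 to 902.6 elsewhere, while Myf5, Actc1 and Myl1 were detected on 0 arrays. No erythroid marker was detected on 3 or more arrays. The part of these signals in the results was not tested.

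Promoter windows give the sequence context of the genes. RefSeq windows of 300 bases (GRCm38.p6, 250 before and 50 after a transcript start) were found for 34 of the 44 genes, 5 of them with several starts. An E2F site (TTTCCCGC, TTTGGCGC, TTTCGCGC, TTTGCCGC or TTTGGCGG, on either strand, overlaps counted as found) lay in a window of 14 of the 34, or 41.2%, against 3.18% of 27025 genes. The NF-Y site CCAAT was found in 55.9% against 41.1%, and the cell cycle homology letters TTTGAA or TTCGAA in 23.5% against 21.7%. A match of letters describes the sequence and shows no binding. Of the 26 tested genes with a window, 10 held an E2F site, and 6 of those 10 and 12 of the other 16 were higher after Cre in cKO1 and lower in the other lines, a pattern described below. The windows of Cdt1 (chr8:122567765-122568064, plus strand), Pclaf (chr9:65890073-65890372, plus), Lig1 (chr7:13278576-13278875, plus) and Uhrf1 (chr17:56304063-56304362, plus, the downstream of its starts) are shown as those that hold an E2F site among Lig1, the gene of smallest p, and the 5 genes that passed without cKO1. The other 2 of these, Fen1 and Cdc7, had no E2F site in their windows. The sequences have the E2F sites in capitals and the rest in lower case, 5′ to 3′ on the gene's strand.
Cdt1: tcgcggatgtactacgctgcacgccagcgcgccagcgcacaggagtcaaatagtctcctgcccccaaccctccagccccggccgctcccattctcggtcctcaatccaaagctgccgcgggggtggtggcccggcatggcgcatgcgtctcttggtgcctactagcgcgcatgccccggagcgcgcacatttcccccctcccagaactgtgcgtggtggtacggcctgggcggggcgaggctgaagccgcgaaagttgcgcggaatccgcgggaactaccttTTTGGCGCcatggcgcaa
Pclaf: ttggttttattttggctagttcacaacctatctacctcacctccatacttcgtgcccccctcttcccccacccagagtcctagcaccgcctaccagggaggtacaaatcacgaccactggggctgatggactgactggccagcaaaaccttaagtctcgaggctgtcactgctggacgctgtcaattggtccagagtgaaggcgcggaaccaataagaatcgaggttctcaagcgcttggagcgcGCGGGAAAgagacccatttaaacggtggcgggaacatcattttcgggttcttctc
Lig1: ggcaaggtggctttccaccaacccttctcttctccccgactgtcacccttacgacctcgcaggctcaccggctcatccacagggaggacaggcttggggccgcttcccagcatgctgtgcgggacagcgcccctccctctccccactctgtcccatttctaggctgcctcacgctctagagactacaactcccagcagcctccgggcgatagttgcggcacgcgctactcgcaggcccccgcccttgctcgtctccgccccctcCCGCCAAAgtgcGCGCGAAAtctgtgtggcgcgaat
Uhrf1: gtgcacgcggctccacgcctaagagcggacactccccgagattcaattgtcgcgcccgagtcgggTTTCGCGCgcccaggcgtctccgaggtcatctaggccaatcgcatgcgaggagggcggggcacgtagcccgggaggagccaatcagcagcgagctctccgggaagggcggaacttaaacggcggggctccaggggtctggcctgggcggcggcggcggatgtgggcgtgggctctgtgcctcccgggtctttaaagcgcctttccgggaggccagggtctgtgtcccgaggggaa
The site of Pclaf starts at position -5 (the transcript start being 0) and reads GCGGGAAA on the gene's strand, the reverse complement of TTTCCCGC. Those of Cdt1 and Lig1 lie within the 50 bases after the start, and that of Uhrf1 starts at -185.

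The levels of the replication genes differed between the lines in the GFP arm too, whose cultures received no Cre. On the GFP arrays 26 of 32 genes were highest in cKO1, intermediate in pcKO1 and lowest in cKO2, an order that 1785 of all 8486 genes showed. On the Cre arrays 28 of 32 genes had that order, against 1774 of 8486. The median difference of cKO1 over cKO2 was 1.07 on the GFP and 1.59 on the Cre arrays, that of cKO1 over pcKO1 0.56 and 1.19, and that of cKO2 minus pcKO1 -0.47 and -0.39. For all genes these medians were near 0, the largest in size being the -0.04 of cKO1 minus cKO2 on the Cre arrays. Duplicate arrays of cKO2 differed by a median of 0.10 (GFP) and 0.12 (Cre) in a replication gene, and by at most 0.391. Line cKO1 exceeded cKO2 by more than 0.391 for 29 of 32 genes on the GFP and 31 of 32 on the Cre arrays, against 22.7% and 26.4% of all genes. It exceeded pcKO1 by that much for 23 and 30 genes (19.5% and 25.8% of all), and pcKO1 exceeded cKO2 for 19 and 16 (20.4% and 18.3%). The duplicates give the technical spread of 1 line and not the spread between cultures. No test was made, since a line had 1 culture per arm.

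**Figure D1:**
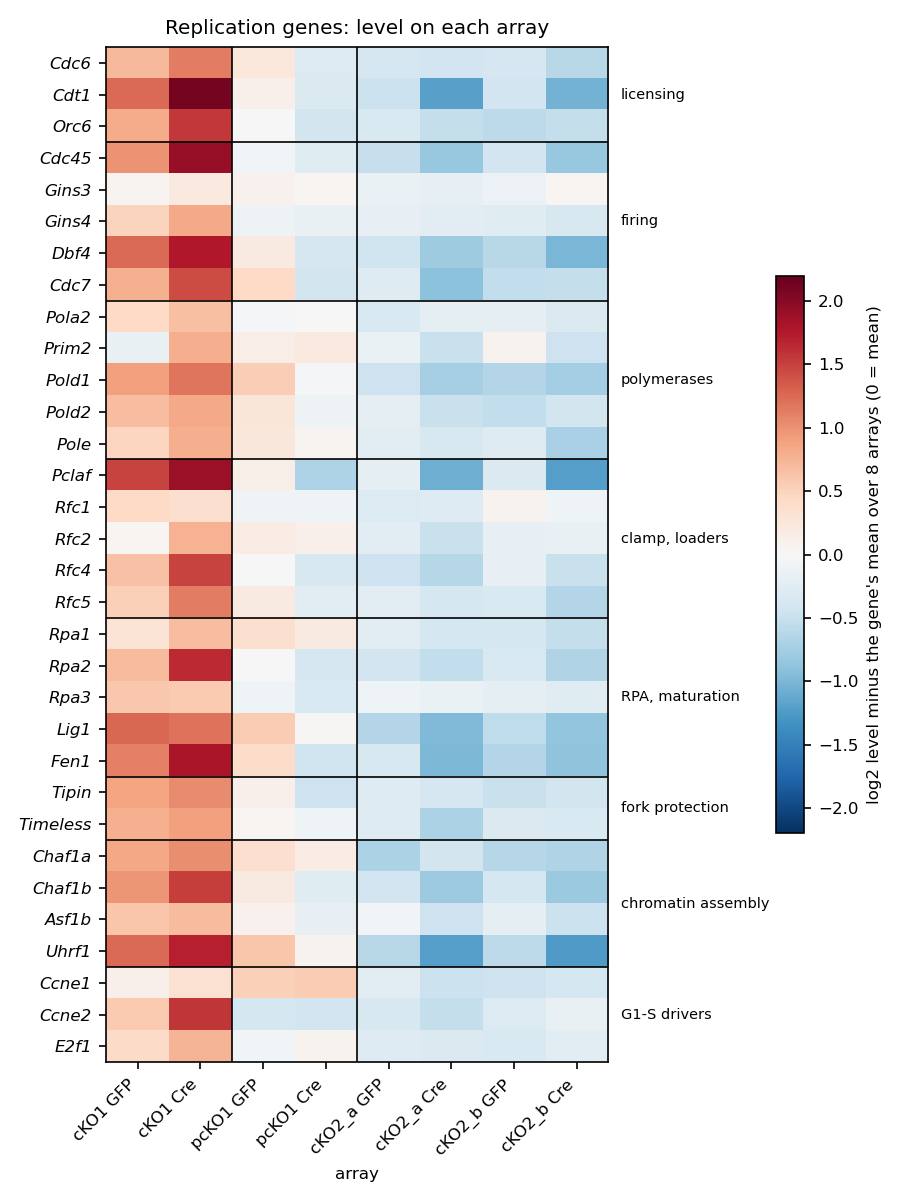
Level of each of the 32 detected replication genes (rows, by role) on each of the 8 arrays (columns, by line), as log2 intensity minus the mean of the gene over the 8 arrays; red is above and blue below that mean. The cKO1 Cre array holds the highest level of 28 genes and the cKO2 Cre arrays the lowest of 24. The shares of all genes with their highest or lowest level on those arrays were not counted.

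After Cre the lines went apart. In cKO1, 29 of 32 genes had a higher level on the Cre than on the GFP array, with a median change of 0.39, whereas 29 were lower in cKO2 and 28 in pcKO1, with medians of -0.20 (-0.21 and -0.16 in duplicates a and b) and -0.31. The medians over all 8486 genes were -0.03, 0.01 and -0.01. Between the 2 cKO2 pairs the change of a replication gene differed by a median of 0.18 and by at most 0.64. Lines cKO1 and pcKO1 had 1 pair of arrays each, so their changes have no such spread. A total of 23 genes, 71.9% of the 32, were higher in cKO1 and lower in cKO2 and pcKO1, a pattern of 13.0% of all genes, and 0 genes showed the reverse, which 14.0% of all genes did. A level at least 1.5-fold higher was found for 11 genes in cKO1 (34.4% of the 32, 5.51% of all genes) and at least 1.5-fold lower for 0 (7.90% of all). At least 1.5-fold lower levels were found for 3 genes in cKO2 (9.38%, against 0.424% of all genes) and for 3 in pcKO1 (9.38%, against 1.54%). Changes of the 32 genes correlated between cKO2 and pcKO1 with Pearson's r of 0.549 (all genes 0.16), between cKO1 and cKO2 with -0.339 (0.175) and between cKO1 and pcKO1 with -0.112 (-0.183). These are descriptions across genes of the same arrays, and genes are not replicates.

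**Figure D2:**
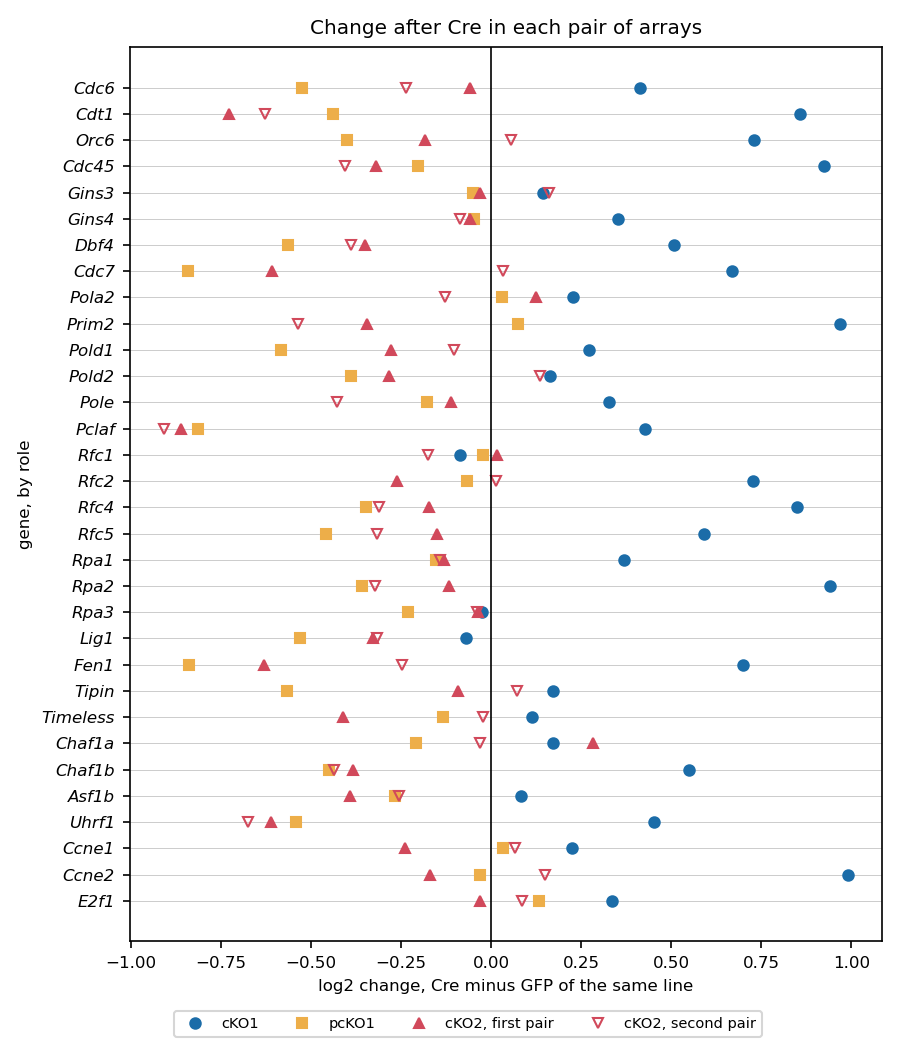
Log2 change (Cre minus GFP of the same line) of each of the 32 genes in each of the 4 pairs of arrays, as circles for cKO1, squares for pcKO1 and triangles for the cKO2 duplicates (filled a, open b). Circles lie right of 0 for 29 genes, and most squares and triangles lie left of it.

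With the 3 lines taken as replicates, no gene passed the test. The median change of the 32 genes was -0.05, against -0.01 over all genes. In the limma fit with the line as a block, 0 of the 32 genes and 0 of all 8486 passed an adjusted p of 0.05 in either direction (0% of all genes lower and 0% higher). At an unadjusted p under 0.05, 0 of the 32 were lower (2.05% of all) and 0 higher (1.63%), and adjusted p-values of the 32 ran from 0.967 to 0.996. Only Lig1, Rfc1 and Rpa3 were lower in all 3 lines (9.38% of the 32, 13.2% of all genes) and only E2f1 was higher in all 3 (3.12%, against 12.6%).

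When limma was fitted to cKO2 and pcKO1 without cKO1, 5 of 32 genes were lower at an adjusted p under 0.05 (15.6%, against 0.719% of all genes) and 0 were higher (against 0.460%). They were Pclaf (-0.85 ± 0.15, SE of the fit, n = 2 lines, adjusted p = 3.64e-06), Fen1 (-0.64 ± 0.14, adjusted p = 0.00203), Uhrf1 (-0.59 ± 0.14, adjusted p = 0.00437), Cdc7 (-0.57 ± 0.15, adjusted p = 0.0155) and Cdt1 (-0.56 ± 0.15, adjusted p = 0.0159). Every SE there comes from the trend over all genes, since 1 residual degree of freedom was left and the prior was unlimited. A gene's own spread between the 2 lines thus does not enter its p-value. In cKO2 and pcKO1 the changes lay close for Pclaf (-0.88 and -0.81) and apart for Cdc7 (-0.29 and -0.84). Line cKO1 is the one in which most of the 32 genes went the other way. The p-values of the fit without it therefore give no separate support. Without pcKO1, the line with the macrophage signal, 68 of all genes and 0 of the 32 passed, and without cKO2 2 and 0 did.

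**Figure D3:**
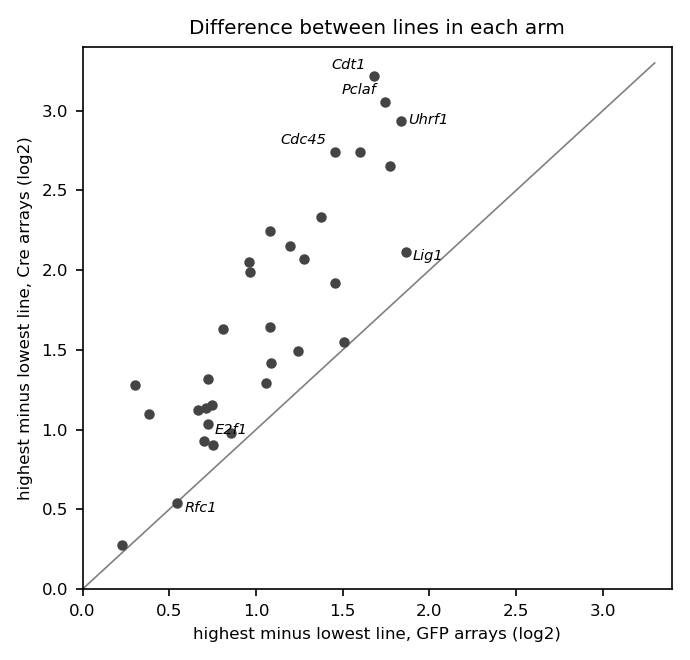
Difference between the highest and the lowest line (log2) on the Cre arrays against that on the GFP arrays, 1 point per gene for the 32 replication genes, with the line of equality. Rfc1 alone lies below the line, and Cdt1 lies farthest up at 3.22.

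The distance between the highest and the lowest line was wider on the Cre arrays for 31 of 32 genes. Its median was 1.07 on the GFP and 1.59 on the Cre arrays, against 0.53 and 0.63 over all genes, and it was smaller on the Cre arrays for 3.12% of the 32 and 36.9% of all genes. For Cdt1 it went from 1.68 to 3.22, for Pclaf from 1.75 to 3.06 and for Uhrf1 from 1.84 to 2.93, while for Rfc1 it was 0.55 and 0.54.

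Among the licensing factors, Cdt1, which brings MCM to origins, had GFP levels of 10.18 in cKO1, 8.47 and 8.53 in cKO2 and 9.05 in pcKO1, and Cre levels of 11.04, 7.74 and 7.90, and 8.61. The Cre array was the higher one in cKO1 and the lower one in the other 3 pairs, and the change in cKO1 exceeded the mean of the other lines by 1.42, the largest such difference of the 32 genes. Its Cre over GFP ratio was 1.81 for cKO1, 0.625 for cKO2 and 0.738 for pcKO1, and its change over the lines -0.09 ± 0.27 (SE, limma adjusted p = 0.988). Orc6, a subunit of the origin recognition complex, had GFP levels of 10.93, 9.77 and 9.52, and 10.10, and Cre levels of 11.66, 9.59 and 9.58, and 9.70 in cKO1, cKO2 and pcKO1. Its cKO1 arrays stood above all others in each arm, and duplicate b of cKO2 changed by 0.06 only. Cdc6, the ATPase that acts with Cdt1, changed by 0.41, -0.15 and -0.53 in cKO1, cKO2 and pcKO1.

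Of the firing factors, Cdc45, a helicase subunit, had GFP levels of 8.45 in cKO1, 6.94 and 7.03 in cKO2 and 7.40 in pcKO1, and Cre levels of 9.37, 6.62 and 6.63, and 7.20. It was detected on all 4 GFP but only 2 Cre arrays, and its cKO1 level after Cre was far above the rest. Cdc7, the catalytic subunit of the firing kinase, had GFP levels of 8.13, 7.07 and 6.81, and 7.80, and Cre levels of 8.80, 6.46 and 6.84, and 6.96 in the same order. The ratio of Cre over GFP for Cdc7 was 1.59 in cKO1 and 0.558 in pcKO1, but the cKO2 duplicates disagreed, at -0.61 and 0.03. Dbf4, the regulatory subunit of that kinase, changed by 0.51, -0.37 and -0.56. Gins4, a GINS subunit and the brightest firing gene, had GFP levels of 10.87, 10.20 and 10.11, and 10.27, and Cre levels of 11.22, 10.14 and 10.02, and 10.23. Only in cKO1 did Gins4 change by more than 0.09, and Gins3 stayed within 0.16 of its GFP level in every pair, with a mean level of 6.76 near background.

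Among polymerase and primase genes, Pold1, the catalytic subunit of polymerase delta, had GFP levels of 9.83 in cKO1, 8.47 and 8.27 in cKO2 and 9.47 in pcKO1, and Cre levels of 10.10, 8.19 and 8.17, and 8.89. Its levels in cKO1 and pcKO1 were above those in cKO2 in each arm, and its change ran from 0.27 in cKO1 to -0.58 in pcKO1. Its partner subunit Pold2 changed by 0.16, -0.07 and -0.39. Pole, the catalytic subunit of polymerase epsilon, was detected on 4 arrays and changed by 0.33, -0.27 and -0.18. The polymerase alpha subunit Pola2 changed by 0.23, -0.00 and 0.03, and the primase subunit Prim2 by 0.97, -0.44 and 0.07. In Prim2 both cKO2 pairs were lower and the other lines higher, although a dimmer second probe gave 0.48, 0.00 and -0.42.

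Pclaf, a small partner of the PCNA clamp, had GFP levels of 10.21 in cKO1, 8.51 and 8.42 in cKO2 and 8.86 in pcKO1, and Cre levels of 10.64, 7.65 and 7.51, and 8.05. All 3 pairs outside cKO1 gave changes between -0.81 and -0.91, close to each other, and cKO1 gave 0.43. The change of Pclaf over the lines was -0.42 ± 0.25 (SE, limma adjusted p = 0.967). Among the clamp loader subunits, Rfc2 had GFP levels of 10.02, 9.75 and 9.80, and 10.15, and Cre levels of 10.75, 9.49 and 9.81, and 10.09. The cKO1 Cre array alone stood out for Rfc2. Rfc4 changed by 0.85, -0.24 and -0.35 and Rfc5 by 0.59, -0.23 and -0.46, whereas Rfc1, the large subunit, changed by -0.09, -0.08 and -0.02. A dimmer probe of Rfc4 gave 0.59, 0.15 and 0.37.

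Lig1, the ligase that seals Okazaki fragments, had the smallest p of the 32 genes, with GFP levels of 9.40 in cKO1, 7.49 and 7.57 in cKO2 and 8.69 in pcKO1, and Cre levels of 9.33, 7.17 and 7.26, and 8.16. The Cre array was lower in every pair, while the lines differed by far more than the arms. Its change was -0.31 ± 0.15 (SE, limma adjusted p = 0.967), and 2 dimmer probes near background each gave a higher level after Cre in 1 line. A further Lig1 probe, detected on 2 arrays and not kept, was higher in all 3 lines (0.43, 0.19 and 0.18). Fen1, the flap nuclease acting before the ligase, had GFP levels of 10.25, 8.79 and 8.51, and 9.55, and Cre levels of 10.95, 8.16 and 8.26, and 8.71. Its ratio was 1.62 in cKO1 and 0.559 in pcKO1, so the lines went in opposite directions. The RPA subunits differed among themselves. Rpa1 had GFP levels of 11.61, 11.05 and 10.92, and 11.65, and Cre levels of 11.97, 10.92 and 10.78, and 11.50. Rpa2 had GFP levels of 8.22, 7.09 and 7.19, and 7.51, and Cre levels of 9.16, 6.97 and 6.86, and 7.15. For Rpa1 the arms of a line lay within 0.37 of each other, while Rpa2 was 1.92-fold higher in cKO1. A dimmer Rpa2 probe detected on 3 arrays gave -0.01 in cKO1, and Rpa3 changed by -0.02, -0.04 and -0.23.

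Of the fork protection pair, Tipin had GFP levels of 10.44 in cKO1, 9.30 and 9.09 in cKO2 and 9.68 in pcKO1, and Cre levels of 10.61, 9.21 and 9.16, and 9.11. It was lower by 0.57 in pcKO1 and changed by 0.17 or less in the other pairs, and a second probe detected on 8 arrays gave -0.07, 0.03 and -0.09. Its partner Timeless changed by 0.11, -0.22 and -0.13.

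The 4 chromatin assembly genes, which act on new chromatin behind the fork, had median changes of 0.31, -0.37 and -0.36 (cKO1, cKO2, pcKO1). Uhrf1, which reads hemimethylated DNA behind the fork, had GFP levels of 10.90 in cKO1, 9.05 and 9.08 in cKO2 and 10.27 in pcKO1, and Cre levels of 11.36, 8.43 and 8.41, and 9.73. The cKO2 duplicates lay close to each other in each arm, and the Cre array was lower in every pair but that of cKO1. Asf1b, a histone H3-H4 chaperone, had GFP levels of 7.74, 7.07 and 6.92, and 7.22, and Cre levels of 7.82, 6.68 and 6.66, and 6.95, detected on 2 of 4 Cre arrays. Its changes over the lines, -0.17 ± 0.14 (SE, limma adjusted p = 0.967), and those of Uhrf1, -0.24 ± 0.21 (adjusted p = 0.967), did not pass. The CAF-1 subunit Chaf1b changed by 0.55, -0.41 and -0.45, and Chaf1a by 0.17, 0.13 and -0.21.

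The 3 G1-S drivers had median changes of 0.34 (cKO1), -0.01 (cKO2) and 0.03 (pcKO1). E2f1, the activator of many of these genes, had GFP levels of 9.88 in cKO1, 9.18 and 9.14 in cKO2 and 9.42 in pcKO1, and Cre levels of 10.22, 9.15 and 9.22, and 9.55. Its Cre array was slightly higher in cKO1, pcKO1 and duplicate b and lower by 0.03 in duplicate a, and its change was 0.17 ± 0.14 (SE, limma adjusted p = 0.967). Ccne2, a cyclin E, had GFP levels of 7.65, 6.72 and 6.77, and 6.68, and Cre levels of 8.64, 6.55 and 6.92, and 6.65. It was 1.99-fold higher in cKO1, the largest ratio of the 32 genes in a line, and near its GFP level elsewhere, with a change of 0.32 ± 0.21 (SE, limma adjusted p = 0.967). Ccne1 changed by 0.23, -0.09 and 0.03.

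Neighbouring gene lists were counted the same way, and no gene of them passed the adjusted threshold. All 6 MCM helicase genes were higher in cKO1 and lower in cKO2 and pcKO1, with median changes of 0.59, -0.49 and -0.36, and Mcm5 had the widest split at 0.71, -0.96 and -0.68. Of 9 nucleotide synthesis genes 8 were tested, with medians of 0.25, -0.26 and -0.51. At an unadjusted limma p under 0.05, 2 of the 8 were lower (2.05% of all genes), the ribonucleotide reductase subunit Rrm1 and the thymidine kinase Tk1. So were 2 of the 15 arrest and quiescence genes and 1 of the 23 further replication genes (both lists below). Among the MCM genes and the other E2F family genes, 0 were lower at that threshold. Rrm2, the S-phase subunit of the reductase, changed by 1.01, -0.32 and -0.64. A further 37 replication and fork genes, 23 of them tested, had medians of -0.03, -0.11 and -0.12, so the opposite directions of the lines were not seen in that list's medians. Of 7 other E2F family genes and partners 4 were tested, with medians of 0.63, -0.03 and -0.20. The 15 tested of 20 arrest and quiescence genes gave median changes of -0.41 (cKO1), -0.03 (cKO2) and -0.07 (pcKO1), and 10 of the 15 had a lower level after Cre in cKO1, as did 4444 of all 8486 genes.

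**Figure D4:**
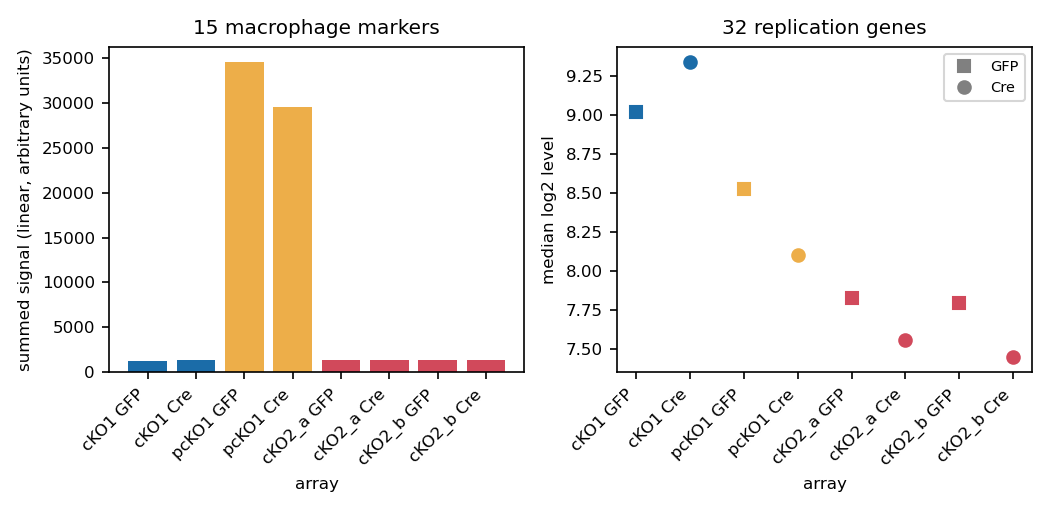
Left, summed linear signal of the 15 macrophage markers on each of the 8 arrays; right, median log2 level of the 32 replication genes on the same arrays (squares GFP, circles Cre; blue cKO1, yellow pcKO1, red cKO2). The marker signal is high on both pcKO1 arrays alone, and the replication medians run from 9.34 on the cKO1 Cre array to 7.44 on a cKO2 Cre array.

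Per array, the median level of the 32 genes was 9.02 (GFP) and 9.34 (Cre) in cKO1, 8.52 and 8.10 in pcKO1, and 7.83 and 7.56 in duplicate a and 7.80 and 7.44 in duplicate b of cKO2. The 3 lines did not overlap in these medians, whichever arm was taken. The macrophage signal of pcKO1 was 34530 on its GFP and 29550 on its Cre array. Its part in the pcKO1 levels was not tested, nor was that of the lower matrix gene levels in the cKO1 values. The deposited mean-scaled values had a median of 155 on the cKO1 Cre array, against 131 to 148.7 on the other 7, and the median change of the 32 genes in cKO1 stayed positive under each normalization tried. With median scaling it was 0.22, where the median of all genes in cKO1 was -0.16, against 0.39 and -0.03 with quantile normalization.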

How the data were processed

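Total RNA of MEFs was amplified and hybridized to 8 Illumina MouseRef-8 arrays, which have 1 color and carry many beads per probe. The authors deposited intensity values per probe, scaled to a mean of 508.3 on each array, and a second table of intensity with detection p-values per the file headers, made in GenomeStudio without background subtraction. Columns of the second table carry the arm and a cell name that is in no label, so they were assigned to an arm and not to a line, and detection p-values served to count arrays. Sample-named intensity values were corrected by normexp (offset 50), then quantile normalized, and log2 was taken, in R 4.3.3 with limma 3.58.1. Of 25697 probes, 23978 had 1 symbol and 1719 none in the platform annotation, and symbols were updated through RefSeq, 15 of them to another name. Probes detected on at least 3 of 8 arrays were kept (11152, among them 38 of the 55 probes of the listed genes) and the brightest stood for a gene, which gave 8486 genes, 639 of them without a symbol.

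Cre and GFP were compared by lmFit and eBayes with a trend and the line as a block, after the cKO2 duplicates were averaged, two-sided with Benjamini-Hochberg adjustment over all genes. The fit had 2 residual degrees of freedom and a prior of 6.36. The arrays pair by line per the labels, and deviations from the arm mean correlated within the 4 pairs at 0.789 to 0.849. Every array was printed for the 6 genes of smallest p, the 6 with the largest difference between 1 line and the others, and the brightest of each role. The genes, lists and alternatives were chosen with earlier results of these data known, so counts over a list are descriptions. The number of arrays limits precision, and the script was tested on simulated data. The p-values rest on spreads between these cultures only, each gene's own being moderated toward a trend over all genes. Promoter windows came from RefSeq (GRCm38.p6).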

Additional observations from a re-analysis of the deposited data

Results flagged for a closer look

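In 17 genes the change in cKO1 was positive while every other pair was negative. The share of all 8486 genes with this pattern over single pairs was not counted. Over line means, with the cKO2 duplicates averaged, 13.0% of all genes were higher in cKO1 and lower in cKO2 and pcKO1. For the 17 genes the difference of cKO1 from the mean of the other lines was not tested. It was 1.42 for Cdt1, 1.34 for Fen1, 1.27 for Pclaf, 1.23 for Rpa2, 1.21 for Cdc45, 1.14 for Rfc4, 1.04 for Uhrf1, 0.979 for Chaf1b, 0.975 for Dbf4, 0.936 for Rfc5, 0.75 for Cdc6, 0.659 for Pold1, 0.551 for Pole, 0.513 for Rpa1, 0.412 for Gins4, 0.38 for Asf1b and 0.289 for Timeless. In Prim2 cKO2 opposed the other lines, at -0.962, which was likewise not tested.

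In 15 of 96 groups of 4 arrays or 4 pairs, 1 value stood apart, with a gap to the nearest over the range above Dixon's critical value. For independent values that happens by chance in about 1 of 20 groups. The arrays of an arm come from 3 lines, 1 of them in duplicate, so the 4 values are not independent and that rate does not apply. The share over all genes was not counted, so no excess is claimed. The cKO1 array stood apart in the Cre levels of Orc6 (0.94), Tipin (0.936), Rpa2 (0.876), Rfc4 (0.871) and Gins4 (0.83) and in the GFP levels of Ccne2 (0.915) and Rpa3 (0.854). The cKO1 pair stood apart in the changes of Rpa1 (0.954), Chaf1b (0.933), Pclaf (0.928), Gins4 (0.914), Uhrf1 (0.881), Rfc4 (0.854) and Cdc45 (0.849), and the pcKO1 pair in that of Rpa3 (0.924).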

How the results depend on the processing

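The opposite directions of the lines held throughout: the count of genes higher in cKO1 and lower in cKO2 and pcKO1 was 17 to 24 under the 8 other ways of normalizing, filtering and choosing probes (17 of the 25 genes detected on all 8 arrays), and the median changes of the lines kept their signs. Genes passing in the comparison over all genes, 0 in the fit reported, numbered 3 with the deposited mean-scaled values, 1 with median scaling, 1 with no filter and 5 with each cKO2 pair as its own pair, and 2 to 100 with a line left out. None of these was a replication gene except the 5 that passed without cKO1. Without the replicate block, 0 passed. Without a line the median change over the 32 genes ran from -0.26 (cKO1 left out) to 0.11 (pcKO1 left out). Genes lower in all remaining lines numbered 26 of 32 without cKO1 (2223 of all 8486 genes). They numbered 3 without cKO2 and 3 without pcKO1 (2037 and 2331 of all). Genes higher in all remaining lines numbered 1 to 4 of 32 (1739 to 2263 of all). Median scaling gave 6 of 32 genes lower in all lines (1490 of all 8486) and no filter 5 of 40 (2352 of 18303). The deposited values gave 2 of 32 genes higher in all (1314 of all 8486) and no filter 2 of 40 (2305 of 18303). The scanner table corrected by neqc with unpaired arms, chosen after seeing the data, gave a median of -0.11 and 0 genes.

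The median level difference of cKO1 over cKO2 on GFP arrays was 0.80 with the deposited values, 0.85 without background correction, 1.24 with an offset of 16, 0.78 with no filter and 0.86 with the mean of probes. On Cre arrays it was 1.27, 1.33, 1.90, 1.31 and 1.33 with the same settings and 1.35 with median scaling. Over pcKO1 on Cre arrays it was 0.97 with the deposited values, 1.01 with median scaling, 0.93 with no filter and 0.996 with the mean of probes. These alternatives were also added after seeing the data, and the cause of the shifts was not tested.

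The change over the lines turned sign when a line was left out, with ranges of -0.021 to 0.49 for Ccne2, -0.28 to 0.36 for Cdc45, -0.57 to 0.19 for Cdc7, -0.56 to 0.21 for Cdt1, -0.64 to 0.13 for Fen1, -0.060 to 0.15 for Gins4, -0.23 to 0.33 for Orc6, -0.39 to 0.041 for Pold1, -0.10 to 0.33 for Rfc2, -0.14 to 0.12 for Rpa1, -0.29 to 0.36 for Rpa2 and -0.29 to 0.081 for Tipin. It also turned for Cdc45 (-0.00073) and Rpa1 (-0.014) with each cKO2 pair as its own pair, and for Rpa1 with the deposited values (-0.0031) and with median scaling (-0.042). Changes of single genes in 1 line have no replicate, except in cKO2. Dim probes near background limit those of Gins3, Pole and Asf1b. Levels near background on the cKO2 Cre arrays also limit others, such as Cdc45 (6.62 and 6.63), Cdc7 (6.46 and 6.84), Timeless (6.51 and 6.86) and Ccne2 (6.55 and 6.92).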
